A study of Mus musculus with 31 samples.

Results

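Genes of alternative macrophage activation and scavenger receptor genes were followed in mouse masseter muscle (MM), the jaw-closing muscle, after injection of an inflammatory agent or of collagenase. The set held 9 of the 22609 gene symbols in the count tables and was fixed by name: Mrc1, Msr1, Arg1, Cd163, Retnla, Chi3l3, Folr2, Lyve1 and Marco. All 9 symbols were found in all 31 libraries.

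Macrophages exposed to IL-4 or IL-13 signal through the IL-4 receptor and the transcription factor STAT6 and take up a program called alternative activation, which in mice is read from Arg1, Retnla, Chi3l3 and Mrc1. Scavenger receptors are cell surface proteins that bind modified lipoproteins, microbes, haemoglobin complexes and cell debris, and many of them mark macrophages that clear damaged tissue. Folr2, Lyve1 and Cd163 are often used as markers of macrophages that reside in tissue, and injured muscle is known to recruit monocytes that turn into macrophages during repair.

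Bulk RNA-seq was made from the left MM of adult male C57BL/6J mice, 1 library per mouse. Complete Freund's adjuvant (CFA), an oil emulsion of killed mycobacteria, was injected in 2 groups of 3 mice collected at 1d and 5d, with 3 vehicle mice of the same experiment. Collagenase type 2 (Col), an enzyme that digests collagen, was injected at 0.2U in 2 groups of 4 mice named 1C and RPC and at 10U in groups of 4, 3 and 4 mice labelled 2d, 6d and 12d, with 3 vehicle mice. Vehicle was PBS. The labels give the second vehicle group as a vehicle without naming its experiment, and it was taken as the vehicle of the Col groups because the other carries CFA in its name. The study's text gives 1 and 14 days for the groups labelled 2d and 12d, and the labels do not say on which day the 1C and the RPC mice were collected. The group names of the labels are kept here.

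Reads on genes numbered between 14843778 and 29076671 per library; among 465 pairs of libraries, identical tables were found in 0. Levels are given as CPM, read counts scaled to library size with TMM factors, and as RPKM, the CPM per kilobase of exons, where genes are compared with each other. Nothing in the labels says how far replicate mice were handled separately, so the tests measure the spread between these libraries. The muscle markers Acta1, Ckm, Myh4, Myh2, Tnnt3 and Atp2a1 summed to 24910 to 55830 CPM at Col 10U 2d, 26030 to 51870 CPM at 6d, 99260 to 143800 CPM in Col vehicle and up to 191800 CPM elsewhere. At 6d Ckm and Myh4, chosen after their values were seen, were called lower (median log2 fold change -1.50 for the 6), against 13.3% of all genes. The part of a lower share of muscle RNA in the higher levels of other genes at 2d and 6d was not tested. Markers of salivary gland, a tissue that lies next to the MM, summed to 11.1 to 342.5 CPM in all Col 10U 6d and 12d libraries and to 127700 to 159100 CPM in all CFA 5d libraries, and ranged from 89.1 to 140300 CPM among the Col vehicle mice. The share of reads that fell on more than 1 gene was 0.559% to 0.703% in the 11 Col 10U libraries and 0.125% to 0.260% in the other 20, a difference that cannot be told apart from the 10U treatment.

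In the 6 vehicle mice Retnla had the highest median level per length, 44.2 RPKM (range 25.1 to 62.2). Folr2 followed with a median of 10.4 RPKM (4.76 to 13.7), and the Retnla range lay above that of Folr2. Lyve1, Chi3l3, Mrc1, Cd163 and Arg1 had medians of 5.45, 4.49, 3.30, 2.38 and 1.63 RPKM, and the ranges of these 5 neighbours overlapped. Msr1 was at 0.0163 to 0.541 RPKM, and Marco was at 0 counts in 5 of the 6 mice. The resting MM therefore held the secreted protein gene Retnla as its most abundant member, with the scavenger receptors Msr1 and Marco at the low end.

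The plot of CPM by mouse shows the 9 members in the 9 groups.

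**Figure D1:**
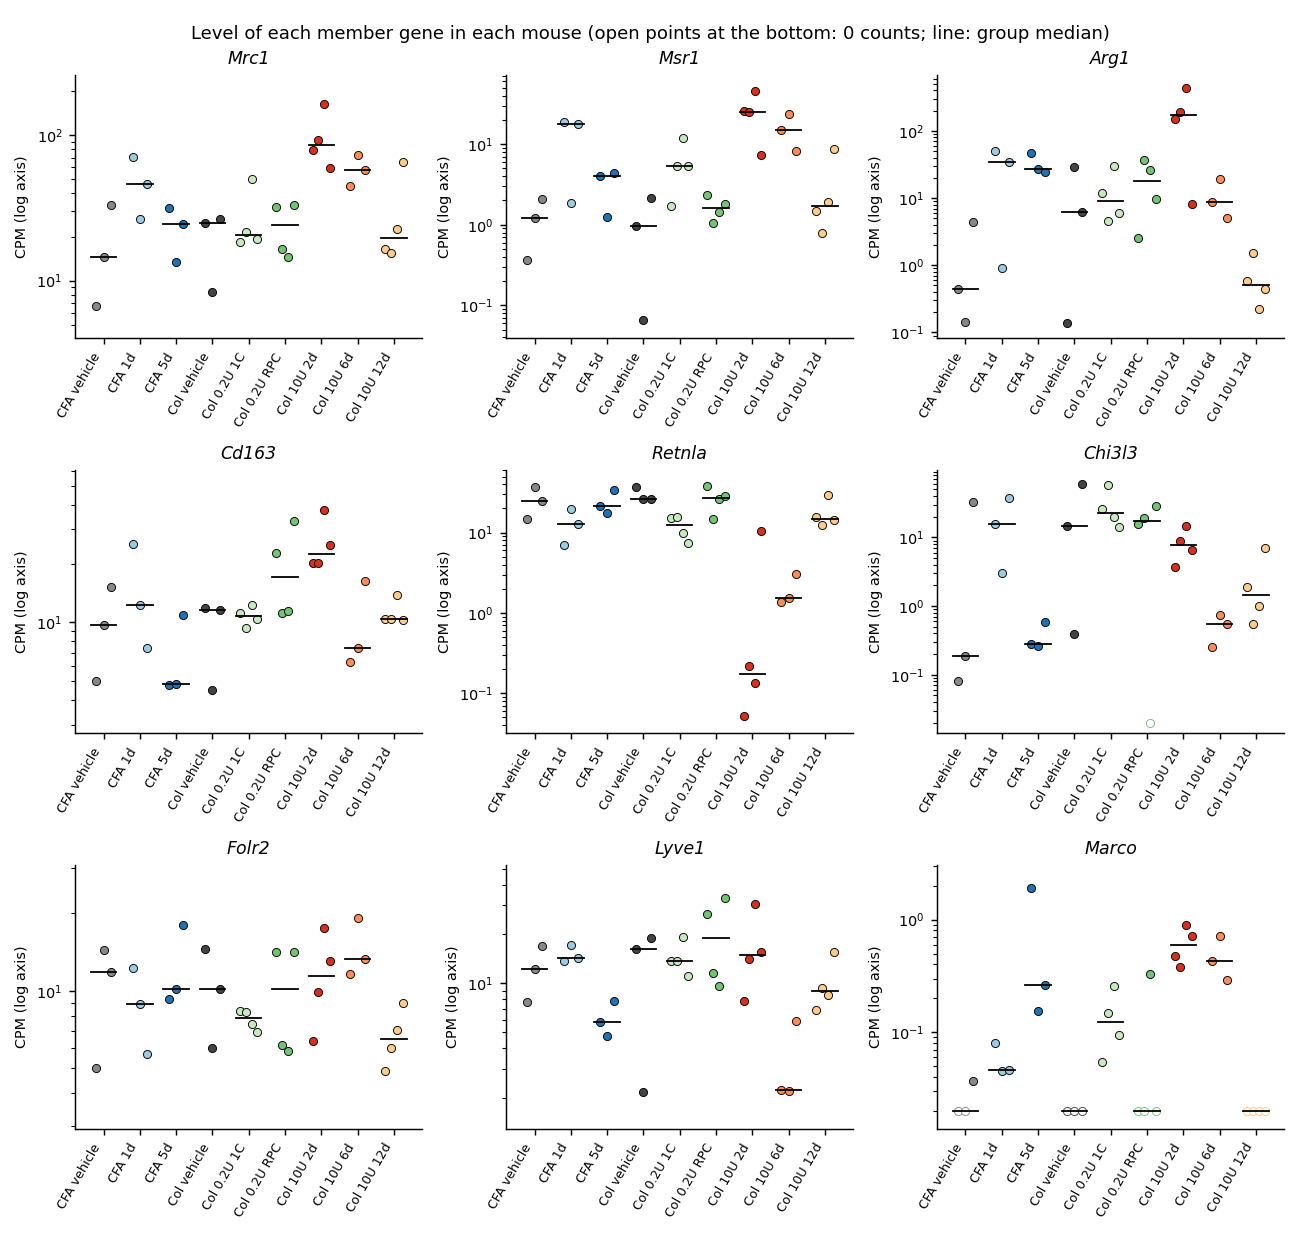
Level of each of the 9 members in CPM (log axis, own range in each panel) in the 31 mice, by group; each point is 1 mouse, the line is the group median, and open points at the bottom are libraries with 0 counts. Mrc1, Msr1 and Arg1 are highest in the Col 10U 2d mice, with 1 mouse low for Arg1, while Retnla is lowest in Col 10U 2d mice 1 to 3 and in the Col 10U 6d mice.

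A gene was called when its adjusted p in edgeR's quasi-likelihood test was under 0.05. Shares of all genes called are those of edgeR, and none is given for calls by DESeq2. Ranges without overlap are read against their share over all genes. All mice of a group lay above all vehicle mice for 10.7% of tested genes at Col 10U 2d, 25.1% at 6d and 11.9% at CFA 5d. They lay below for 13.2% at 2d, 21.9% at 6d and 5.41% in 1C. Without overlap, 10.7% of genes were lower from 2d to 6d, 19.3% from 6d to 12d and 13.9% from CFA 1d to 5d. Against Col vehicle, 4 of the 8 members tested at Col 10U 6d were called. The mannose receptor gene Mrc1 and the scavenger receptor gene Msr1 were higher, against 14% of all genes called higher in that comparison. The secreted protein genes Retnla and Chi3l3 were lower, against 13.3% of all genes called lower. In bulk muscle, fewer cells of a type and less RNA per cell cannot be told apart. At Col 10U 2d none of the 8 tested members was called, against 1.14% and 1.08% of all genes called higher and lower. An unadjusted p under 0.05 was found for 5 of the 8 members and for 4781 of 14373 genes. DESeq2 called 4 members higher and none lower there. At Col 10U 12d none was called (0 by DESeq2), against 0.762% of genes higher and 0.466% lower. There 3 members had an unadjusted p under 0.05, as had 2461 of 14176 genes.

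None of the tested members was called against vehicle after CFA or 0.2U Col. At CFA 1d, 2 of 8 had an unadjusted p under 0.05, as had 588 of 13944 genes. DESeq2 called 1 member higher, while edgeR called 0% of all genes in either direction. At CFA 5d, 2 of 7 had an unadjusted p under 0.05, as had 1964 of 14026 genes. DESeq2 called 1 member higher, and edgeR called 1.06% of all genes higher and 0.0428% lower. For the 1C mice, 2 of 8 had an unadjusted p under 0.05, as had 1819 of 14493 genes, and DESeq2 called 1 lower. For the RPC mice 0 of 8 did, against 1923 of 14269 genes, and DESeq2 called 0. In both groups edgeR called 0% of all genes. The CFA and Col vehicle mice differed in none of 8 tested members (0 with an unadjusted p under 0.05, 0 by DESeq2), against 0.0426% of genes called higher and 0% called lower in Col vehicle.

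**Figure D2:**
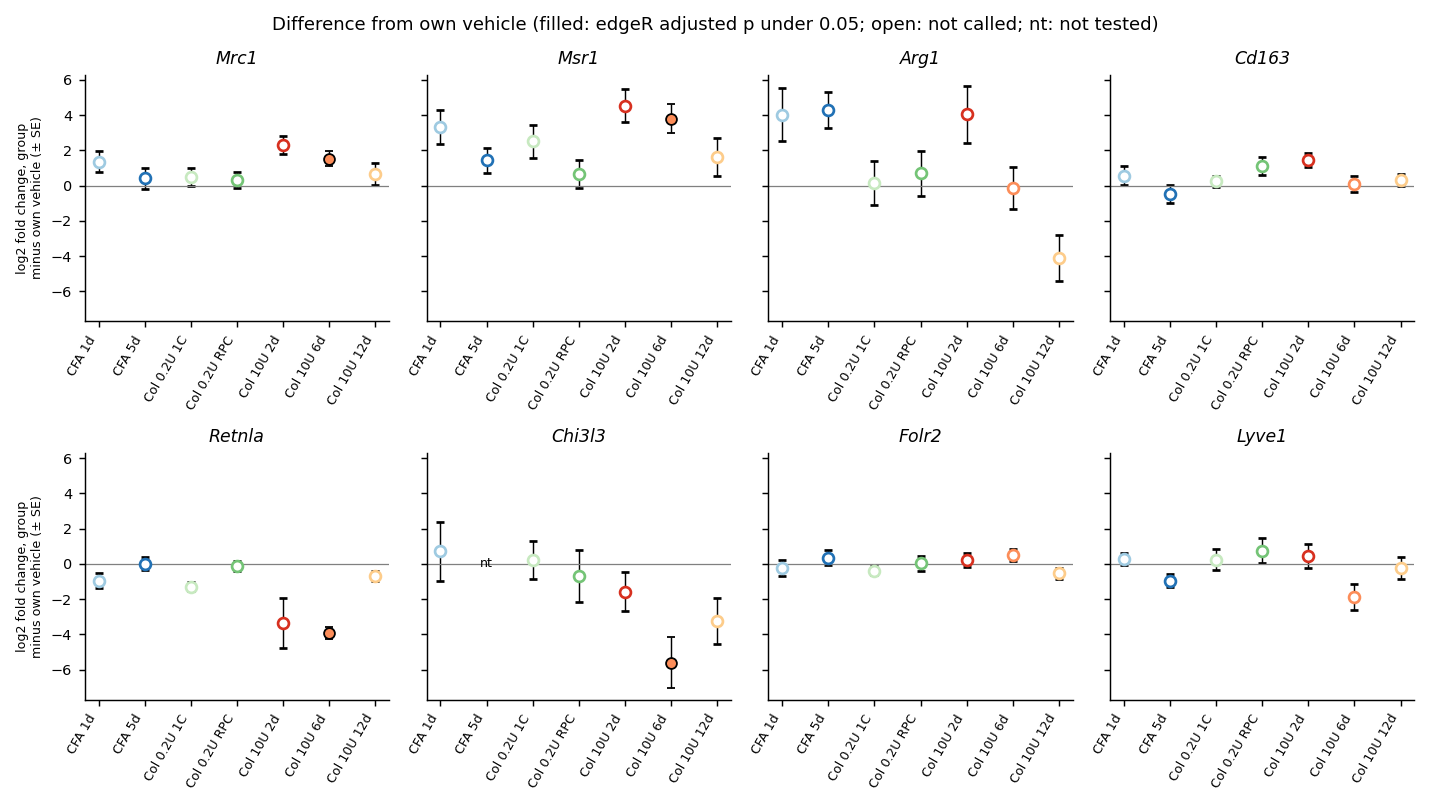
Log2 fold change of 8 members in each of the 7 treated groups against its own vehicle group (points, with SE as bars); filled points have an edgeR adjusted p under 0.05 and nt marks a comparison in which the gene was not tested. Mrc1 and Msr1 are above 0 in all 7 groups, and the 4 filled points are all at Col 10U 6d: Mrc1 and Msr1 above 0, Retnla and Chi3l3 below. Marco was tested against no vehicle group and is not drawn.

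Mrc1 encodes CD206, a mannose receptor that takes up glycoproteins (chromosome 2, 14151041 to 14253684, plus strand, mm9). Mrc1 was at 24.7, 8.35 and 26.7 CPM in the Col vehicle mice and at 79.3, 91.9, 163 and 59.9 CPM at Col 10U 2d. All 4 mice lay above all vehicle mice, and the log2 fold change was 2.31 ± 0.49 (SE, adjusted p = 0.0521). The level at Col 10U 6d was 44.6, 72.7 and 57.5 CPM, again above all vehicle mice, and Mrc1 rose by 1.54 ± 0.41 on the log2 scale (adjusted p = 0.032). The call was lost without Col vehicle mouse 1 or without any of the 3 Col 10U 6d mice (adjusted p = 0.0632 to 0.115), and with 1 fit over all 31 libraries (adjusted p = 0.0508). At Col 10U 12d, mice 1 to 3 were at 16.4, 15.5 and 22.8 CPM and mouse 4 was at 65.4 CPM, so that mouse alone lay above the vehicle range. Mrc1 was 70.7, 26.4 and 46.4 CPM at CFA 1d and 6.71, 14.5 and 33.1 CPM in CFA vehicle, ranges that overlapped (log2 fold change 1.37 ± 0.60, adjusted p = 0.924). The 1C mice were at 18.4 to 21.5 CPM with mouse 3 at 50.1 CPM, and the RPC mice at 14.4 to 33.3 CPM.

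Msr1 encodes scavenger receptor A, which binds modified low density lipoprotein (chromosome 8, 40667054 to 40728032, minus strand). It was scarce in Col vehicle, at 0.956, 0.0652 and 2.17 CPM, and was 25.7, 24.8, 45.6 and 7.35 CPM at Col 10U 2d. Every 2d mouse lay above every vehicle mouse, with a log2 fold change of 4.54 ± 0.94 (adjusted p = 0.0501, and 0.0492 without Col vehicle mouse 3). At Col 10U 6d Msr1 rose to 15.1, 23.7 and 8.14 CPM, a log2 fold change of 3.80 ± 0.82 (adjusted p = 0.0172). The 6d call was lost without Col 10U 6d mouse 1 or mouse 2 (adjusted p = 0.0609 and 0.0728). By 12d the level was 1.49, 0.785 and 1.94 CPM in mice 1 to 3 and 8.72 CPM in mouse 4, the mouse that also had the highest Mrc1. After CFA, Msr1 was 18.6, 1.87 and 17.6 CPM at 1d against 0.368, 1.22 and 2.11 CPM in CFA vehicle (log2 fold change 3.33 ± 0.94, adjusted p = 0.924, and 0.014 by DESeq2), with mouse 2 inside the vehicle range. At CFA 5d it was 4.0, 1.25 and 4.39 CPM. The 1C mice held 1.70, 5.38, 12.0 and 5.39 CPM (log2 fold change 2.52 ± 0.95, adjusted p = 0.357) and the RPC mice 1.04 to 2.31 CPM.

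Marco encodes a second class A scavenger receptor, a receptor for bacteria on phagocytes (chromosome 1, 122371115 to 122401661, minus strand). It had 0 counts in all 3 Col vehicle mice and in all 4 Col 10U 12d mice. It was detected in every mouse at Col 10U 2d, at 0.473, 0.382, 0.887 and 0.713 CPM, and at 6d, at 0.428, 0.711 and 0.292 CPM. Against a floor of 3 counts in each vehicle library, which is 0.156 CPM on average, Marco was at least 3.93-fold higher at 2d and at least 3.06-fold higher at 6d. The CFA 5d mice held 1.91, 0.156 and 0.265 CPM, so mouse 1 was the highest of all 31. At these levels Marco did not reach the minimum of 10 counts in 3 libraries of any comparison with vehicle and was not tested there, and intervals and floors cover counting error only.

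Cd163 encodes the receptor that clears haemoglobin bound to haptoglobin (chromosome 6, 124254669 to 124280545, plus strand). It was 11.9, 4.5 and 11.6 CPM in Col vehicle and 20.1, 20.1, 37.9 and 24.8 CPM at Col 10U 2d. The 2d mice lay above all vehicle mice (log2 fold change 1.47 ± 0.39, adjusted p = 0.0655). The 6d mice held 6.29, 7.42 and 16.2 CPM, which overlaps the vehicle range, and all 3 lay below the 2d mice (6d against 2d, log2 fold change -1.38 ± 0.39, adjusted p = 0.0665, and 0.0359 without Col 10U 2d mouse 4 or 0.0358 without Col 10U 6d mouse 3). At 12d mice 1, 2 and 4 were at 10.4, 10.4 and 10.3 CPM and mouse 3 was at 13.9 CPM. Among RPC mice Cd163 was 22.6, 11.2, 11.4 and 33.3 CPM (log2 fold change 1.11 ± 0.49, adjusted p = 0.379), and 1C mice stayed between 9.42 and 12.3 CPM.

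The 2d group was not uniform. Mouse 4 of Col 10U 2d had the lowest Mrc1, Msr1 and Arg1 and the highest Retnla of its group. It also had the highest muscle markers (55830 CPM against 24910 to 33250 CPM), adipocyte markers (127.8 against 30.0 to 57.8 CPM) and gland markers (110000 against 26.5 to 81710 CPM) and the lowest general macrophage genes (543.5 against 714.6 to 1578 CPM) of its group, and their part in its levels was not tested. Without it, edgeR called 4 members higher (Mrc1, Msr1, Cd163 and Arg1) against 17.9% of all genes, and 1 member lower (Retnla) against 18.4%, where all 4 mice gave no call. The log2 fold changes without mouse 4 were 2.48 for Mrc1 (adjusted p = 0.00821), 4.84 for Msr1 (0.00478), 1.47 for Cd163 (0.0336), 4.47 for Arg1 (0.0366) and -7.72 for Retnla (0.000315). Leaving out this mouse was chosen for its position in the data, and these values describe the other 3 mice. With all 4 mice, 1 fit over all 31 libraries, which shares 1 estimate of the spread, called the same 5 members in the same directions (adjusted p = 0.00592 for Mrc1, 0.00216 for Msr1, 0.0209 for Cd163, 0.0258 for Arg1 and 0.00497 for Retnla). The share of all genes called in that fit is not given here, so this count has no background to be read against. That fit also called Marco higher. Marco passed its count filter only through Col 10U 2d mice 3 and 4, Col 10U 6d mice 1 and 2 and CFA 5d mouse 1, where it was high. The Marco call therefore adds no support.

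Arg1 encodes arginase, which splits arginine into ornithine and urea and is the classical enzyme of alternative activation (chromosome 10, 24635014 to 24647276, minus strand). Its level varied more between mice of a group than that of most members. The Col vehicle mice held 0.137, 29.2 and 6.29 CPM. At Col 10U 2d mice 1 to 3 held 150, 194 and 432 CPM, the 3 highest values of all 31 mice, and mouse 4 held 8.06 CPM, inside the vehicle range (log2 fold change 4.06 ± 1.61, adjusted p = 0.125). At 6d Arg1 was 8.86, 19.1 and 5.01 CPM and at 12d it was 0.578, 1.51, 0.221 and 0.445 CPM. The 12d mice lay below all 6d mice, and Arg1 fell by 4.0 ± 0.65 on the log2 scale from 6d to 12d (adjusted p = 0.0117, and 0.0548 without Col 10U 6d mouse 2). Against vehicle the 12d difference was -4.09 ± 1.30 and was not called (adjusted p = 0.187, and 0.0457 without Col vehicle mouse 1, whose level lay below all 12d mice).

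After CFA, Arg1 was 49.8, 0.913 and 34.0 CPM at 1d (log2 fold change 4.02 ± 1.51, adjusted p = 0.924) and 46.2, 27.4 and 24.6 CPM at 5d, against 0.450, 0.141 and 4.37 CPM in CFA vehicle. All 5d mice lay above the vehicle mice (log2 fold change 4.30 ± 1.01, adjusted p = 0.101, and 0.018 by DESeq2). Without CFA vehicle mouse 3 the 5d log2 fold change was 6.84 (adjusted p = 2.48e-05), with both vehicle groups pooled it was 2.30 (adjusted p = 0.539), and with scores of gland and bone markers as added terms it was 3.33 (adjusted p = 0.665). The 1d value was 6.56 without CFA vehicle mouse 3 and 2.03 with both vehicle groups pooled (adjusted p = 0.349 and 0.696). The 1C mice held 12.0, 4.54, 29.7 and 5.91 CPM and the RPC mice 2.50, 36.9, 26.1 and 9.58 CPM. Markers of salivary gland moved with Arg1 among vehicle mice. In Col vehicle mice 1, 2 and 3 the 7 gland markers summed to 89.1, 140300 and 39480 CPM, and in CFA vehicle mice 1, 2 and 3 to 104.2, 111.7 and 13510 CPM, so the 3 vehicle mice with gland markers of at least 13510 CPM were the 3 with Arg1 above 1 CPM. All CFA 5d mice held at least 127700 CPM of gland markers. The mouse with the highest Arg1, Col 10U 2d mouse 3, held 26.5 CPM of gland markers, and the 6d mice, with 5.01 to 19.1 CPM of Arg1, held 11.1 to 33.7 CPM. In RPC mice 1 to 4 the gland markers summed to 24930, 274300, 188800 and 113900 CPM, in the same order as Arg1. Among the 1C mice the highest sum, 33990 CPM in mouse 3, was in the mouse with the highest Arg1. The part of gland in the Arg1 levels of any group, CFA 5d among them, was not tested.

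Retnla encodes RELM alpha (FIZZ1), a small secreted protein induced by IL-4 and also made by other cells such as fat (chromosome 16, 48842665 to 48844574, plus strand). It was even among vehicle mice, at 36.6, 26.5 and 26.4 CPM for Col and 15.0, 37.2 and 24.7 CPM for CFA. At Col 10U 2d it was nearly absent in mice 1 to 3, at 0.0525, 0.218 and 0.133 CPM (1, 4 and 3 reads), and was 10.6 CPM in mouse 4. All 4 lay below the vehicle mice (log2 fold change -3.35 ± 1.41, adjusted p = 0.142). The Col 10U 6d mice held 1.37, 1.52 and 3.05 CPM, and Retnla fell by 3.91 ± 0.35 on the log2 scale (adjusted p = 0.00151). This call held under all 14 alternatives run, with adjusted p up to 0.0268.

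At 12d Retnla was back at 15.8, 12.3, 29.1 and 14.2 CPM. It rose by 3.19 ± 0.43 from 6d to 12d (adjusted p = 0.00846), and against vehicle the remaining difference was -0.69 ± 0.29 (adjusted p = 0.269). From 2d to 6d the log2 fold change was -0.55 ± 1.5 with all mice (adjusted p = 0.857) and 3.82 without Col 10U 2d mouse 4 (adjusted p = 0.00381), so the direction rested on that mouse. The 1C mice held 15.4, 15.8, 9.80 and 7.54 CPM, all below the Col vehicle mice (log2 fold change -1.28 ± 0.28, adjusted p = 0.246, and 0.00486 by DESeq2), and the RPC mice held 14.8 to 38.0 CPM. After CFA it was 7.06, 19.9 and 12.9 CPM at 1d and 17.8 to 33.7 CPM at 5d. The difference between the 6d Col effect and the 5d CFA effect, each against its own vehicle, was -3.92 ± 0.55 for Retnla (adjusted p = 0.00349), and 17 of 19 alternatives called it (the losses were adjusted p = 0.0535 with 1 fit over all 31 libraries and 0.287 with gland and bone scores added to it). It was the 1 member called in that test, against 4.34% of genes called higher and 6.96% called lower. The same test at the early times (Col 10U 2d and CFA 1d) called none of 8 members (0 with an unadjusted p under 0.05, 0 by DESeq2), against 0.0541% of genes higher and 0.0406% lower.

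Adipocyte markers were low with Retnla at Col 10U 2d and 6d but not in the 1C mice. The 6 markers (Adipoq, Plin1, Cidec, Lep, Cfd and Retn) summed to 106.5 to 321.5 CPM in Col vehicle, 30.0 to 127.8 CPM at 2d, 40.5 to 84.8 CPM at 6d and 52.3 to 196.8 CPM at 12d, none of them at 0 in every library of a group. In the 1C mice, whose Retnla lay below all Col vehicle mice, they summed to 162.1 to 769.4 CPM. At 6d 3 of the 6 were called lower, against 13.3% of all genes (median log2 fold change -1.64 for the 6, and 0.01 over all genes tested). CFA 1d mouse 1 held 22.7 CPM of adipocyte markers, fewer than any of the other mice, and 7.06 CPM of Retnla. The part of adipocytes in the Retnla difference was not tested.

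The promoters of Retnla and Mrc1 are shown because these 2 members moved in opposite directions at 6d. They are the 250 bases before the RefSeq start on GRCm38.p6, a later build than that of the counts, and capitals mark matches to 3 short motifs searched on both strands: TTC and GAA with 4 bases between them, a form bound by STAT6, TTGCNNAA, a form bound by C/EBP factors, and GAGGAAG, a form bound by PU.1.
Retnla, chr16:48842359-48842608, plus strand: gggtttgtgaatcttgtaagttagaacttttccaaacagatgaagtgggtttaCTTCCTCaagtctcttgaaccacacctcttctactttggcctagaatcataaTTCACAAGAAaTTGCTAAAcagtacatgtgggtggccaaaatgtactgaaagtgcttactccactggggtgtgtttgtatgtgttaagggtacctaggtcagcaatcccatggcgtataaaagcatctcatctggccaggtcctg
Mrc1, chr2:14229164-14229413, plus strand: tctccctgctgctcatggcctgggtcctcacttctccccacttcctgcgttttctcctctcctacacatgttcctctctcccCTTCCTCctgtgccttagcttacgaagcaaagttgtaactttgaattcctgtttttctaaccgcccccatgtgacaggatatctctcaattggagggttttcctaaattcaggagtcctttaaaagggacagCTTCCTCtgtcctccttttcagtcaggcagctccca

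The Retnla window held 1 match to each motif, at -145 to -136 (STAT6), -134 to -127 (C/EBP) and -197 to -191 (PU.1) from the start. The Mrc1 window held PU.1 matches at -168 to -162 and -36 to -30. Of the 6 members matched in the promoter table, Marco held 1 PU.1 match, and Cd163, Chi3l3 (listed as Chil3) and Folr2 held none of the 3 motifs. Arg1, Msr1 and Lyve1 had no entry in the table. Among 32851 promoters of the table, 5.9% held the STAT6 form, 9.6% the C/EBP form and 10.6% the PU.1 form. A match describes letters and is not a measured binding site.

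Chi3l3 encodes Ym1, a secreted chitinase-like protein made by alternatively activated macrophages and also by neutrophils (chromosome 3, 105950472 to 106022425, minus strand). It had the widest spread among vehicle mice, at 14.9, 0.392 and 60.4 CPM for Col and 0.0818, 0.187 and 32.8 CPM for CFA. The Col 10U 6d mice held 0.257, 0.745 and 0.543 CPM, and Chi3l3 fell by 5.61 ± 1.45 on the log2 scale (adjusted p = 0.0287), although vehicle mouse 2 lay among the 6d mice. The call was lost without any of the 3 Col 10U 6d mice (adjusted p = 0.0884 to 0.104) and with both vehicle groups pooled (adjusted p = 0.069), and the log2 fold change was -0.90 with scores of gland and bone markers as added terms (adjusted p = 0.71). At 2d it was 3.68, 9.0, 14.7 and 6.60 CPM, and the fall from 2d to 6d was 4.03 ± 0.59 (adjusted p = 0.0104, and 0.0548 and 0.0563 without Col 10U 6d mouse 1 or 2). Over all 14 alternatives the log2 fold change from 2d to 6d ran from -4.38 to -0.27, and 10 called it (adjusted p up to 0.933). At 12d it was 1.93, 0.543, 0.996 and 6.90 CPM, and the difference from vehicle was not called (log2 fold change -3.22 ± 1.30, adjusted p = 0.258).

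After CFA, Chi3l3 was 15.9, 3.01 and 37.8 CPM at 1d and 0.279, 0.260 and 0.583 CPM at 5d. It fell by 5.59 ± 0.97 from 1d to 5d (adjusted p = 0.0172), with no overlap of the mice. Without CFA 5d mouse 1, 2 or 3 the adjusted p was 0.119, 0.109 or 0.0573. The 1C mice held 14.2 to 58.1 CPM, and the RPC mice held 15.5, 19.4, 0 and 28.2 CPM, the 0 in mouse 3 allowing up to 3 reads.

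Neutrophil markers followed the same mice. The 10 markers in the files summed to 355.8, 13.1 and 1451 CPM in the Col vehicle mice, in the same order as Chi3l3, and to 14.2 to 18.8 CPM at 6d. RPC mouse 3, with 0 counts of Chi3l3, held 5.46 CPM of neutrophil markers against 314.8 to 388.0 CPM in the other RPC mice. Bone markers also separated it, at 9.48 CPM against 75.4 to 140.0 CPM. At 6d 5 of 8 tested neutrophil markers were called lower, against 13.3% of all genes, the median log2 fold change being -5.65. Bone markers summed to 4.2 to 32.1 CPM at 6d and to 13.1 to 148.1 CPM in Col vehicle. The study's flow cytometry text reports neutrophils as elevated at 6d after 10U Col, a count of cells and not of RNA. Across all 31 mice, the genes most like Chi3l3 in log2 CPM were S100a9 (r = 0.968), S100a8 (r = 0.965) and Retnlg (r = 0.958), all 3 on the neutrophil list. The part of neutrophils or marrow in the Chi3l3 differences was not tested. The paralog Chi3l4 was at 0 to 0.0935 CPM, and 17.9% of the 50-base windows of Chi3l3 also occur in Chi3l4, and how the counting treated such reads is not given in the sources used here.

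**Figure D3:**
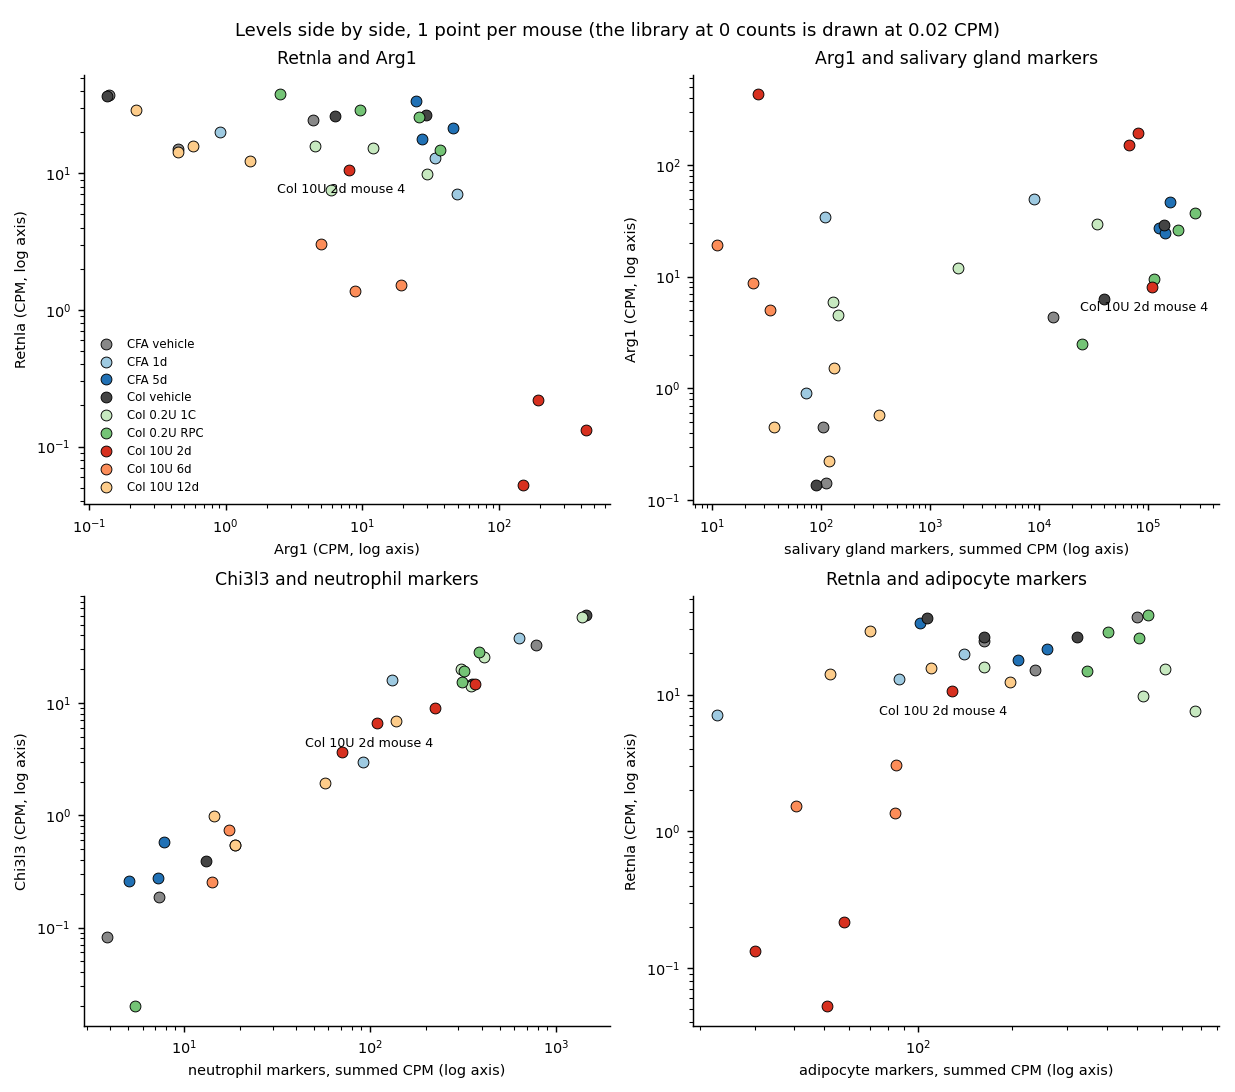
Retnla against Arg1, Arg1 against 7 salivary gland markers, Chi3l3 against 10 neutrophil markers and Retnla against 6 adipocyte markers, 1 point per mouse (31 mice, CPM or summed CPM, log axes, colour by group). Col 10U 2d mice 1 to 3 sit at the highest Arg1 and lowest Retnla and mouse 4 sits away from them, Chi3l3 rises with the neutrophil markers across groups, and Arg1 is high both with and without gland markers.

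Folr2 encodes folate receptor beta, carried by resident macrophages (chromosome 7, 108988512 to 108993831, minus strand). It was the steadiest member and was called against no vehicle group. It was 14.5, 6.00 and 10.1 CPM in Col vehicle, 6.41, 9.88, 17.6 and 13 CPM at 2d, 11.6, 19.2 and 13.2 CPM at 6d and 4.87, 5.98, 7.03 and 8.95 CPM at 12d. From 6d to 12d Folr2 fell by 1.11 ± 0.25 on the log2 scale (adjusted p = 0.0218), with no overlap. The call was lost without Col 10U 12d mouse 1, 2 or 3 or Col 10U 6d mouse 2 (adjusted p = 0.0563 to 0.0972).

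Lyve1 encodes a hyaluronan receptor shared by lymphatic endothelium and resident macrophages (chromosome 7, 117994121 to 118006467, minus strand). It was 16.2, 2.15 and 19.0 CPM in Col vehicle, 7.77, 14, 30.5 and 15.6 CPM at 2d and 2.23, 2.20 and 5.89 CPM at 6d. Against vehicle the 6d difference was -1.87 ± 0.75 (adjusted p = 0.0987, and 0.0155 without Col vehicle mouse 2, which was as low as the 6d mice). It was called lower by DESeq2 (0.0247), with 1 fit over all 31 libraries (0.0202) and with both vehicle groups pooled (0.0433). Lyve1 fell by 2.32 ± 0.56 from 2d to 6d (adjusted p = 0.0444) and rose by 1.57 ± 0.44 from 6d to 12d (adjusted p = 0.0384), where the 4 mice held 6.89, 9.30, 8.52 and 15.5 CPM. After CFA it fell by 1.23 ± 0.25 from 13.8, 17.2 and 14.3 CPM at 1d to 5.77, 4.79 and 7.84 CPM at 5d (adjusted p = 0.0291), and the 5d difference from vehicle was -0.94 ± 0.35 (adjusted p = 0.286). The fall from 2d to 6d was not called without Col 10U 2d mouse 2 or 3 or without any of the 6d mice (adjusted p = 0.0513 to 0.188). The rise to 12d was not called without 12d mouse 1, 2 or 3 or 6d mouse 1 or 2 (0.0625 to 0.146), and the fall after CFA was not called without CFA 5d mouse 1 or 2 or CFA 1d mouse 3 (0.0645 to 0.139). Over all alternatives, 7 of 14 called the rise (log2 fold change 0.82 to 2.19, adjusted p up to 0.284). The fall after CFA was called by 7 of 13 (-1.45 to -0.77, adjusted p up to 0.628). Salivary gland markers summed to 73.3 to 8955 CPM at CFA 1d and 127700 to 159100 CPM at CFA 5d, and their part in this fall was not tested.

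The lymphatic endothelium markers did not move as 1 group at 6d. They summed to 47.8 to 76.3 CPM in Col vehicle and to 47.8 to 57.5 CPM at 6d, with Ccl21a at 0 in every library. Of the 5 tested, Pdpn and Prox1 were called higher and Reln lower, against 14% and 13.3% of all genes. The part of lymphatic vessels in the Lyve1 level was not tested.

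Over the time course of 10U Col, the counts of members called between neighbouring times can be read against all genes. From 2d to 6d none of the 9 tested members was called higher against 4.68% of genes, and 2 were called lower (Chi3l3 and Lyve1) against 4.05%. From 6d to 12d 2 of 8 were called higher (Retnla and Lyve1) against 13.4% of genes, and 2 lower (Arg1 and Folr2) against 13%. From CFA 1d to 5d 0 of 8 were called higher against 4.85% of genes, and 2 lower (Chi3l3 and Lyve1) against 0.99%.

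Because general macrophage genes differed between groups, each member was also set against 12 general macrophage genes (Csf1r, Cd68, Emr1, Itgam, Fcgr1, Mpeg1, Lyz2, Aif1, Tyrobp, Laptm5, Ctss and Cd14) in the same mouse, as the member's log2 CPM minus the mean log2 CPM of the 12. These genes summed to 124.0 to 522.0 CPM in Col vehicle, 543.5 to 1578 CPM at 2d, 1499 to 3083 CPM at 6d and 129.9 to 1109 CPM at 12d, where mouse 4 held the 1109 CPM. At 6d 11 of the 12 were called higher, against 14% of all genes (median log2 fold change 2.79), and at 2d 1 of 12, against 1.14% (median 1.97). On this relative scale Mrc1 was 0.77 ± 0.31 in Col vehicle (SD, n = 3), 1.13 ± 0.17 at 2d (n = 4), -0.43 ± 0.46 at 6d (n = 3) and 1.04 ± 0.33 at 12d (n = 4). Mrc1 thus lay below the vehicle mice relative to macrophage genes at 6d, where its own level was above them. Msr1 was -3.84 ± 1.16 in vehicle, -0.96 ± 0.50 at 2d, -2.43 ± 0.25 at 6d and -2.44 ± 0.22 at 12d, above the vehicle mice at each time. Vehicle mouse 2, at -5.15, held 1 read of Msr1.

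Retnla was 1.51 ± 0.83 in vehicle, -6.18 ± 3.40 at 2d and -5.31 ± 1.07 at 6d on the relative scale, with no overlap at either time. Cd163, Folr2 and Lyve1 differed from vehicle at 6d by -2.80, -2.32 and -4.38, also with no overlap, although none of the 3 was called on its own level. Chi3l3 differed by -6.62 there, again with no overlap. At CFA 5d Cd163, Folr2 and Lyve1 differed from CFA vehicle by -2.06, -1.22 and -2.50, and Mrc1, Retnla and Chi3l3 by -0.99, -1.58 and -2.95. Arg1 differed by 3.70, and each of these was without overlap. Since the general macrophage genes were themselves higher at 6d, a gene of unchanged level also falls on this scale. Folr2, at -2.32, had a mean of 14.7 CPM at 6d against 10.2 CPM in Col vehicle. How many of all genes fall in this way was not computed, so these differences show no loss of a member. These relative values are a description without a test.

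**Figure D4:**
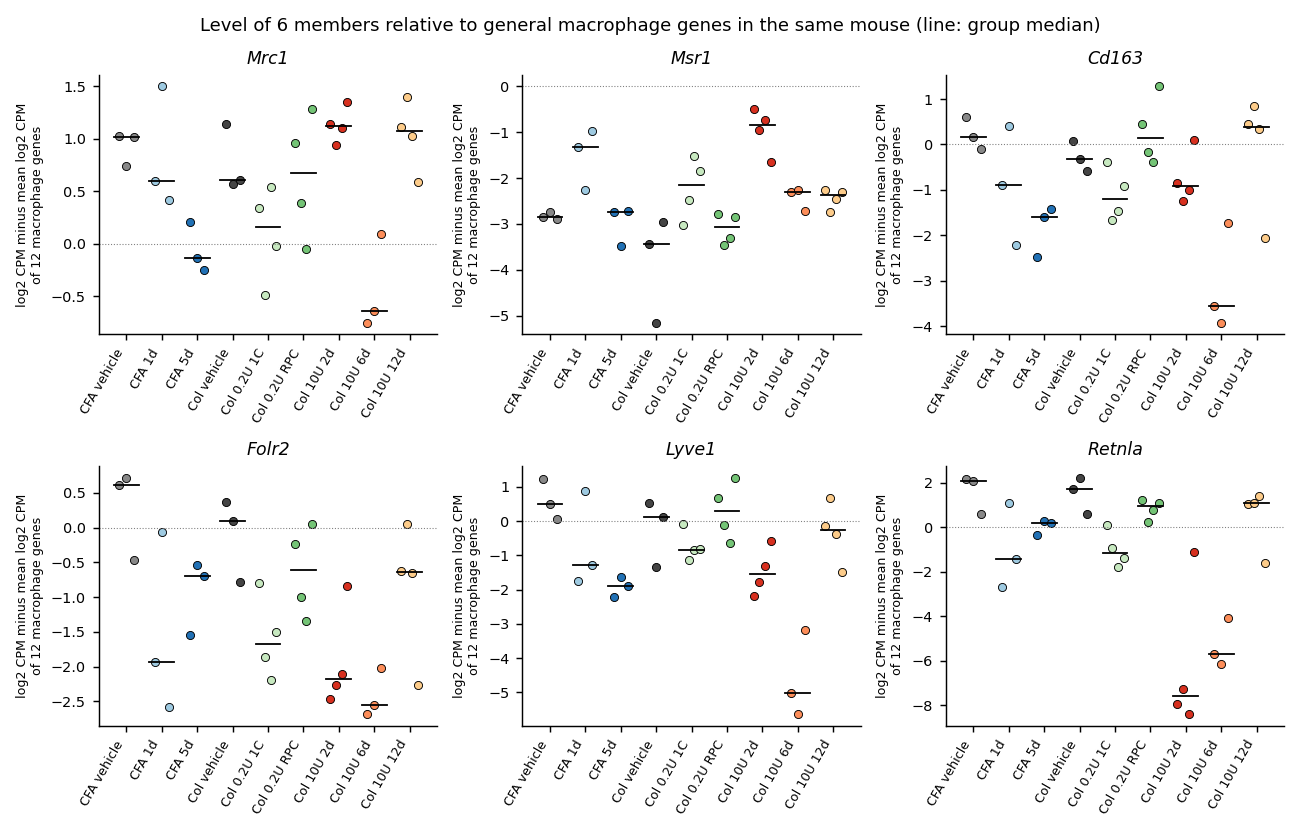
Log2 CPM of 6 members minus the mean log2 CPM of 12 general macrophage genes in the same mouse, by group (each point is 1 mouse, the line is the group median, the dotted line is 0). At Col 10U 6d Mrc1, Cd163, Folr2, Lyve1 and Retnla lie below all Col vehicle mice and Msr1 lies above them.

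The IL-4, IL-13 and IL-10 pathway was read from 16 genes. The ligands were near the limit of detection, with Il4, Il13 and Il10 at no more than 0.106, 0.0807 and 0.622 CPM in any mouse and not tested at 6d. Of the 12 genes tested at Col 10U 6d, 4 were called higher and 1 lower (median log2 fold change 0.22), which is 33.3% and 8.33% against the 14% and 13.3% of all genes called higher and lower at 6d. The IL-10 receptor chain Il10ra rose by 2.37 ± 0.38 (adjusted p = 0.00761), and Il13ra1, a chain of the IL-13 receptor, rose by 1.68 ± 0.25 (adjusted p = 0.00564). At 2d 1 of 12 was called higher, against 1.14% of all genes. It was Cebpb, the gene of C/EBP beta, at 224.6 ± 65.3 CPM against 26.7 ± 10.7 CPM in vehicle (SD, n = 4 and 3, log2 fold change 3.10 ± 0.36, adjusted p = 0.0184). That call was lost without Col vehicle mouse 1 or Col 10U 2d mouse 1 or 2 (adjusted p = 0.0511 to 0.101). Cebpb was 31.2 ± 13.3 CPM at 6d (n = 3), so that it fell by 2.86 ± 0.37 from 2d (adjusted p = 0.0063, and 0.0563 without Col 10U 6d mouse 2), and at 12d it was higher than in vehicle by 2.37 ± 0.36 (adjusted p = 0.0232, and 0.052 to 0.0827 without Col vehicle mouse 1 or Col 10U 12d mouse 1, 2 or 3). Arg1 was at 8.06 to 432 CPM at 2d and at 0.221 to 1.51 CPM at 12d, and a link between Cebpb and Arg1 was not tested.

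Among 20 other alternative activation genes, 14 were tested at 6d, 5 were called higher and 1 lower (median log2 fold change 1.02), against 14% and 13.3% of all genes. Clec7a, the beta-glucan receptor dectin-1, rose by 3.77 ± 0.57 (adjusted p = 0.00629). The chemokine gene Ccl22 rose by 2.93 ± 0.58 (adjusted p = 0.0135, and 0.0594 without Col 10U 6d mouse 2). At 2d none of 14 was called, with a median of 0.96.

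Of 19 other scavenger receptor genes, 6 of 17 tested were called higher at 6d and 1 lower, against 14% and 13.3% of all genes, with a median of 0.44. Megf10, a receptor for dying cells that muscle stem cells also carry, rose by 3.24 ± 0.39 (adjusted p = 0.0032) and the chemokine and scavenger receptor gene Cxcl16 by 2.45 ± 0.25 (adjusted p = 0.00219). Cd68 rose by 3.38 ± 0.67 (adjusted p = 0.0138, and 0.0544 without Col 10U 6d mouse 2). From 6d to 12d 5 of 17 were called lower and 2 higher, against 13% and 13.4% of all genes, and Megf10 fell by 2.53 ± 0.49 (adjusted p = 0.0161, and 0.0542 without Col 10U 12d mouse 3 or 0.0739 without Col 10U 6d mouse 2). At 2d none of 18 was called, with a median of 0.07.

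Of 18 other genes of resident macrophages, 16 were tested at 6d, with 4 called higher and 5 lower against 14% and 13.3% of all genes and a median of -0.50. The 3 that rose most were the complement genes C1qb, C1qa and C1qc, by 2.89 ± 0.34, 2.80 ± 0.36 and 2.61 ± 0.34 (adjusted p = 0.00292, 0.004 and 0.00425). Cd209b, Cd209g and Timd4, chosen after their values were seen, were among the genes called lower. Of 16 classical activation genes, which mark the response to bacterial products and interferon gamma, 7 of 15 tested were called higher at 6d and 1 lower, against 14% and 13.3% of all genes, with a median of 1.31, and none of 15 at 2d, with a median of 1.55.

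Arginase supplies ornithine for polyamine synthesis, and 10 genes of arginine and polyamine metabolism were followed. At 6d 1 of 9 tested was called higher and 2 lower, against 14% and 13.3% of all genes, so the counts were near the background. Odc1, the ornithine decarboxylase that opens polyamine synthesis, was 65.1 ± 16.6 CPM at 6d against 28.7 ± 8.69 CPM in vehicle (n = 3 and 3, log2 fold change 1.17 ± 0.29, adjusted p = 0.0256). This call was lost without Col vehicle mouse 1 or 2 or Col 10U 6d mouse 2 or 3 (adjusted p = 0.0529 to 0.101). Over all 14 alternatives 8 called it, with adjusted p up to 0.32. Odc1 then fell by 1.87 ± 0.19 from 6d to 12d (adjusted p = 0.0059), the same step in which Arg1 fell and 13% of all genes were called lower. A link between Odc1 and Arg1 was not tested. Slc7a1, an arginine importer, fell by 1.70 ± 0.21 from 2d to 6d (adjusted p = 0.00593), and 13 of 14 alternatives called it (adjusted p up to 0.212). At 2d 0 of 9 were called, with a median of 0.44.

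The genes with the most similar log2 CPM to a member over the 31 mice were named as a description; the mice share groups and libraries, so r carries no p. Mrc1 was most like Dab2 (r = 0.939), Ccr2 (r = 0.919) and Cd300ld (r = 0.917), and Msr1 like Lilrb4 (r = 0.975), Ccr2 (r = 0.960) and Pik3r5 (r = 0.957). Arg1 was most like Rdh10 (r = 0.856), M6pr (r = 0.853) and Tuba1c (r = 0.850). Retnla was most like Pgcp (r = 0.947), Xpnpep2 (r = 0.946) and Adra2b (r = 0.936), none of them another member. Marco was most like Hmox1 (r = 0.772), BC055004 (r = 0.740) and Mmp27 (r = 0.736). Cd163 and Folr2 had lower best values, at 0.720 (Ednrb), 0.719 (Socs4) and 0.708 (Prg4) for Cd163 and at 0.740 (Gpr133), 0.735 (Csf1r) and 0.680 (C1qc) for Folr2.

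Between members, Mrc1 and Msr1 had the highest r, 0.91 over the 31 mice and 0.87 for deviations from the group means. Retnla had negative r with Msr1 (-0.73) and Mrc1 (-0.69). For deviations from the group means these were -0.30 and -0.13, and that of Retnla with Arg1 was -0.61. At Col 10U 2d mouse 4 held 3.42 log2 CPM of Retnla and 3.03 of Arg1. Mice 1 to 3 held -2.76 to -1.68 of Retnla, on 1, 4 and 3 reads, and 7.23 to 8.76 of Arg1. The r without mouse 4 was not computed. Cd163, Folr2 and Lyve1 had r between 0.70 and 0.78 with each other for deviations from the group means, against 0.15 to 0.70 over all mice.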

How the data were processed

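Each of the 31 libraries came with a table of raw counts that the authors deposited, on 22609 gene symbols. Per the labels and the study's methods, reads were aligned with TopHat2 to mm9; the footer lines have the form that HTSeq writes, and the annotation and strand setting are not given in the sources used here. The 5 footer lines were left out of the tests. Members and gene lists were chosen with earlier results of these data known.

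A gene entered a comparison when 3 or more of its libraries held 10 or more counts, and was tested with edgeR 4.0.16 (quasi-likelihood test, TMM, R 4.3.3), with Benjamini-Hochberg adjustment over all genes tested. DESeq2 1.42.0 (Wald test), other normalization and filters, 1 fit over all 31 libraries, a replicate block, pooled vehicles and leaving out each library were alternatives. On simulated counts for Col 10U 2d against vehicle, edgeR recovered 176 of 200 changed genes, with 13 wrong among 189 calls, and DESeq2 recovered 183, with 43 wrong among 226 calls. For CFA 1d edgeR recovered 162 of 200, with 18 wrong among 180 calls, while it called 0 genes in the real libraries. The simulated spread came from the 3 vehicle mice and the changes were 2 on the log2 scale. An uneven treated group was not simulated, so these figures give no power for the real comparisons. Same-numbered mice deviated together in CFA 1d against CFA vehicle (r from 0.163 to 0.591 over 3 pairs), where the block changed no member's call, and in the 2 vehicle groups (r from 0.114 to 0.678); the labels give no reason for a pairing. RPKM used GENCODE vM1 exon lengths. Named list genes were at most 3 called genes per list and comparison, by size of log2 fold change; the lymphatic markers were named after their values were seen. Log2 CPM used a prior count of 2. The genes most like Lyve1 are not reported here.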

Additional observations from a re-analysis of the deposited data

Results flagged for a closer look

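In all, 4 of 35 member and group combinations of 4 mice held a mouse far from the other 3 by Dixon's test, where chance gives about 1 in 20. Mrc1 was 50.1 CPM in Col 0.2U 1C mouse 3 against 18.4 to 21.5 CPM in the others. Cd163 was 13.9 CPM in Col 10U 12d mouse 3 against 10.3 to 10.4 CPM. Chi3l3 was 0 in Col 0.2U RPC mouse 3 against 15.5 to 28.2 CPM, and Marco was 0.331 CPM in the same mouse and 0 in the other 3. The effect of Col 10U at 6d on Retnla differed from that of CFA at 5d by -3.92 on the log2 scale (edgeR interaction, adjusted p = 0.00349, and 0.0535 and 0.287 in the 2 of 19 alternatives that lost the call). The median share of reads that fell on more than 1 gene, a footer line used in no comparison, was 0.647% in the Col 10U libraries and 0.185% in the others.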

How the results depend on the processing

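Counts of members called depended on the setting, and the cause was not tested. The counts in this section are given without the share of all genes called under each setting and show only that dependence. DESeq2 called 1 higher at CFA 1d, 1 higher at CFA 5d, 1 lower for 1C, 4 higher at Col 10U 2d and 4 lower from 2d to 6d. It called 3 lower at Col 10U 6d, and 3 higher and 3 lower from 6d to 12d, where edgeR called 2 each. At Col 10U 2d, 2 were called higher with no low-count filter and 4 higher and 1 lower with both vehicle groups pooled. One fit over all 31 libraries gave 5 higher (Marco among them) and 1 lower at 2d, 0 lower from CFA 1d to 5d, 1 higher from 6d to 12d and 0 lower in the later interaction. Adding gland and bone marker scores to that fit, an alternative chosen after seeing the data, gave 5 higher and 1 lower at 2d, 1 lower at 6d, 0 lower from CFA 1d to 5d, 1 lower from 2d to 6d, 1 higher and 4 lower from 6d to 12d and 0 lower in the later interaction.

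With the replicate number as a block, 4 members were called higher and 1 lower at 2d, 0 higher and 1 lower at 6d, 1 higher and 4 lower from 2d to 6d, 4 lower from 6d to 12d and 1 lower in the early interaction, and the log2 fold change of Retnla from 2d to 6d was 3.83 in place of -0.55. The numbers were not taken as a pairing there, since same-numbered mice did not all deviate together (r down to -0.392).

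Leaving out 1 library at a time gave 0 to 1 member higher at CFA 5d, 0 to 4 higher and 0 to 1 lower at Col 10U 2d, 0 to 2 higher and 1 to 3 lower at 6d, 0 to 1 lower at 12d, 0 to 3 lower from CFA 1d to 5d, 0 to 1 higher and 0 to 5 lower from 2d to 6d, 1 to 2 higher and 0 to 4 lower from 6d to 12d, 0 to 1 lower in the early interaction and 1 to 2 lower in the later one. Retnla from 2d to 6d ranged from -0.96 to 3.82. Marco, at under 2 CPM, was limited by depth.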
